A study of Vitis vinifera with 16 samples.

Results

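Jasmonate ZIM-domain (JAZ) genes encode repressors of the jasmonate response. In Arabidopsis, JAZ proteins bind MYC transcription factors and hold their target genes back. When the active hormone, jasmonoyl-isoleucine, joins a JAZ protein to the receptor COI1, the JAZ protein is degraded, and JAZ genes are themselves among the targets that are then transcribed, so that JAZ transcripts are commonly used as a readout of jasmonate signalling in leaves. The members described here are 6 genes given as a list of row identifiers, all of which were found among the 30661 genes of the deposited table: VIT_17s0000g02230, VIT_11s0016g00710, VIT_09s0002g00890, VIT_10s0003g03810, VIT_10s0003g03790 and VIT_10s0003g03800. A description was found only for VIT_10s0003g03790, as jasmonate ZIM domain-containing protein 8. The other 5 genes are called JAZ genes here from the list alone, and no separate role is given to any of them. Whether the deposited table holds further JAZ genes was not checked, so that the JAZ genes below are these 6 only.

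The 4 groups were leaves of Vitis vinifera cv. Garnacha Blanca, from grafted potted plants in a greenhouse, taken 24 h after spraying with Akivi (Aki, a formulated botanical extract of Dittrichia viscosa at 0.521 g/L), with lyophilized Bacillus UdG (BL), with fresh Bacillus UdG (BF), or with water as the non-treated control (NTC). Bacillus UdG is a strain of Bacillus velezensis; BL cells were dried with skimmed milk and BF cells were applied with culture supernatant, neither of which NTC received, so that the cells and what came with them cannot be told apart. Each group had 4 libraries, each from 2 leaves of each of 5 plants, and the blocks of plants corresponded to the treatments, so that block and treatment cannot be told apart either. The study kept 3 libraries of each group after looking at how they grouped, and left out Aki_R1, BL_R1, BF_R1 and NTC_R3 (named by group and replicate); the tests below use the 12 retained libraries, and the values over all 16 stand beside them.

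Levels are in FPKM, in which the fragment count is divided by gene length and by the library's total on genes, so that they can be compared between genes as well as between libraries. The main test made no further rescaling. By median-of-ratios the factor of BF_R1 was 0.871, so that a typical gene reads low there, and the other libraries had factors between 0.983 and 1.07. The libraries held between 11078481 and 16991918 fragments on genes. Each test is on log2(FPKM + 0.1) by limma, with p adjusted by Benjamini-Hochberg over all genes tested, and a gene is said to have risen or fallen where the adjusted p was 0.05 or less. No genome coordinates or sequences of the members are given here, because no annotation of these identifiers was used. For the same reason the identity of the leaf tissue was not checked against marker genes. In RNA from whole leaves, a change in the number of cells that express a gene and a change in RNA per cell cannot be told apart.

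A single gene carried most of the summed FPKM of the 6 listed JAZ genes. VIT_17s0000g02230 had between 73.8 and 181 FPKM, with 1614 to 3989 fragments per library, and its mean lay above that of 96.4% of the genes with any signal. It made up between 58.3% and 84.7% of the summed FPKM of the 6 genes, depending on the library. VIT_11s0016g00710 (median 12.5 FPKM) and VIT_09s0002g00890 (median 12.2 FPKM) came next, followed by VIT_10s0003g03810 (median 6.84 FPKM). The lowest were VIT_10s0003g03790, with a median of 0.660 FPKM and 1 to 26 fragments per library, and VIT_10s0003g03800, with a median of 0.593 FPKM and 2 to 16 fragments. Of the 3 genes with consecutive identifiers, VIT_10s0003g03810 lay above VIT_10s0003g03790 and VIT_10s0003g03800 in every library. The authors counted only uniquely mapping reads, and the effect of near-identical copies on these values was not tested.

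**Figure D1:**
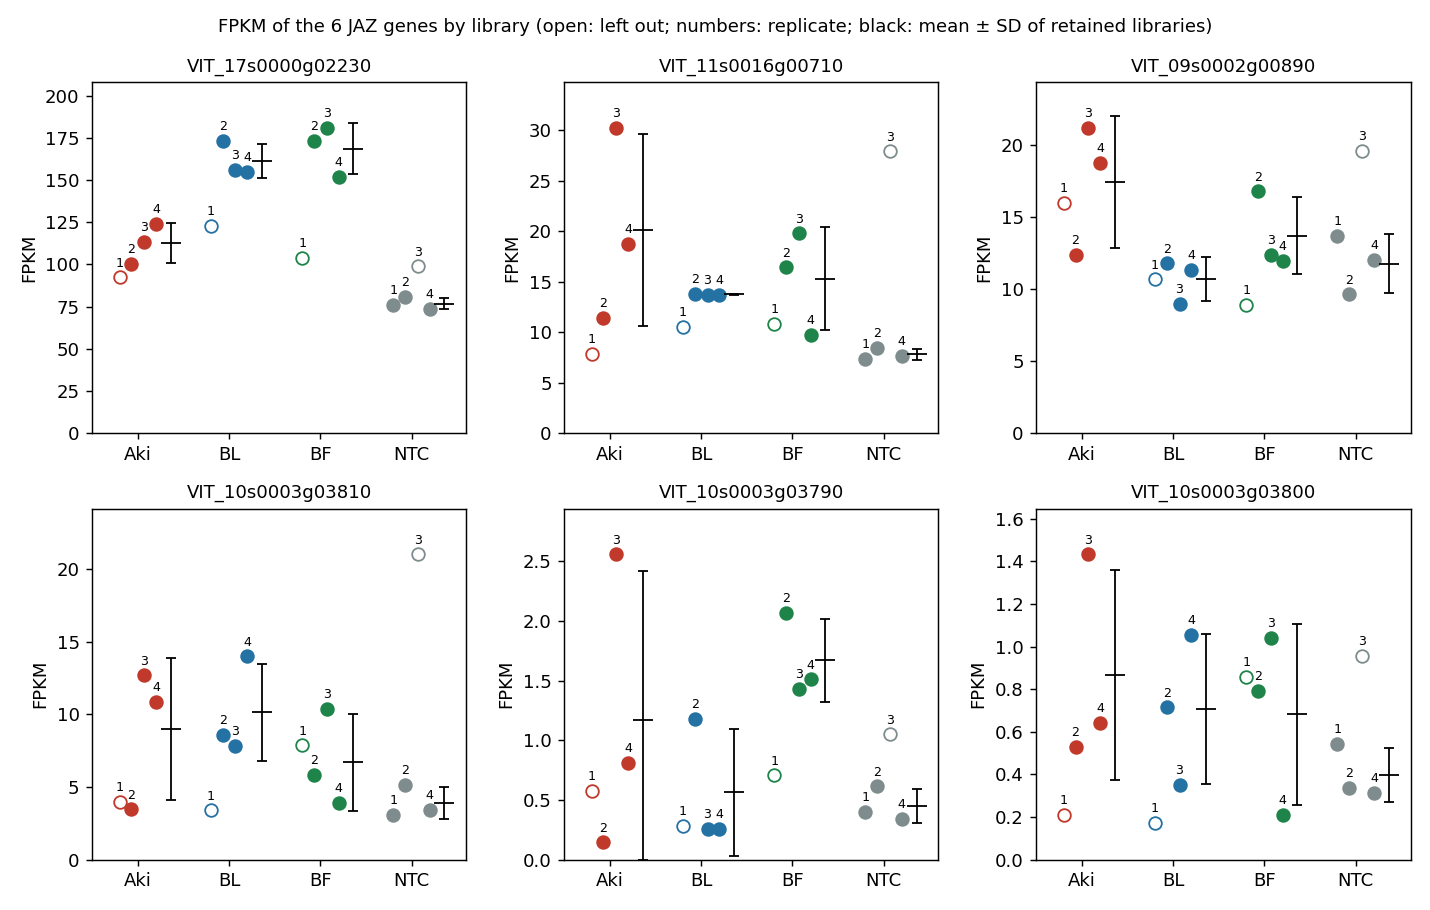
FPKM of each JAZ gene by library (vertical axis, linear from 0, with its own scale in each panel) for Aki, BL, BF and NTC; filled points are the 12 retained libraries, open points the 4 left out, small numbers the replicate, and black marks the mean ± SD of the 3 retained libraries (a lower bar that would pass 0 ends there). VIT_17s0000g02230 is higher in BL and BF than in NTC, and the open NTC_R3 point is the highest of its group in all 6 panels.

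VIT_17s0000g02230 rose after all 3 treatments over the retained libraries, and after BL and BF over all 16 as well. Aki_R1 to Aki_R4 had 92.3, 100.4, 113 and 124 FPKM. BL_R1 to BL_R4 had 123, 173, 156 and 155 FPKM, and BF_R1 to BF_R4 had 104, 173, 181 and 152 FPKM. NTC_R1 to NTC_R4 had 76.2, 80.6, 98.8 and 73.8 FPKM. Every BL and every BF library lay above every NTC library, over all 16 as well as over the 12, whereas Aki_R1 lay below NTC_R3. The left-out library was the lowest of its group in Aki, BL and BF and the highest in NTC, so that leaving these libraries out widened each difference from NTC.

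Over the retained libraries VIT_17s0000g02230 averaged 161 ± 10.2 FPKM in BL and 76.8 ± 3.45 FPKM in NTC (SD, n = 3 each), a log2 fold change of 1.07 (95% interval 0.85 to 1.28, adjusted p = 3.26e-05). The BF libraries averaged 169 ± 15.0 FPKM, with a log2 fold change against NTC of 1.13 (0.91 to 1.35, adjusted p = 2.61e-05). These are rises of 2.10-fold in BL and 2.19-fold in BF. With all 16 libraries the log2 fold changes were 0.88 in BL (adjusted p = 0.00127) and 0.87 in BF (adjusted p = 0.00136). Both rises stayed past the threshold under each of the 34 alternative settings run, with log2 fold changes between 0.84 and 1.11 in BL and between 0.87 and 1.20 in BF.

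The rise of VIT_17s0000g02230 after Aki was smaller and depended on the libraries. The retained Aki libraries averaged 113 ± 11.9 FPKM (SD, n = 3), a log2 fold change against NTC of 0.55 (0.33 to 0.76, adjusted p = 0.00733). With all 16 it was 0.39 (0.04 to 0.73) and did not pass (adjusted p = 0.401). Of the 4 left-out libraries added back singly, NTC_R3 (log2 fold change 0.46, adjusted p = 0.0850) and BF_R1 (adjusted p = 0.0810) each ended the call. BF_R1 left the fold change at 0.55, since it enters this contrast through the shared estimate of the spread alone. The call held when any of the 12 retained libraries was left out, and in 24 of the 34 alternative settings altogether.

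Compared directly over the retained libraries, VIT_17s0000g02230 was lower in Aki than in BL (log2 difference -0.52, -0.74 to -0.30, adjusted p = 0.00430) and lower in Aki than in BF (-0.58, -0.80 to -0.37, adjusted p = 0.00203). Over all 16 libraries the differences were -0.49 from BL (adjusted p = 0.0499) and -0.48 from BF, the second no longer past the threshold (adjusted p = 0.0562). With BF_R1 alone added to the retained libraries, neither passed (-0.52, adjusted p = 0.0658 against BL, and -0.41, adjusted p = 0.106 against BF). BL and BF did not differ past the threshold, with a log2 difference of -0.06 (-0.28 to 0.16, adjusted p = 0.875). The order of the means was therefore BF, BL, Aki and NTC, in which the neighbours BF and BL were not separated and the other neighbours were separated over the retained libraries.

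VIT_11s0016g00710 rose after Aki over the retained libraries, a call that held in 16 of the 34 alternative settings. Aki_R1 to Aki_R4 had 7.83, 11.4, 30.2 and 18.7 FPKM. BL_R1 to BL_R4 had 10.5, 13.8, 13.7 and 13.7 FPKM, and BF_R1 to BF_R4 had 10.8, 16.4, 19.8 and 9.74 FPKM. NTC_R1 to NTC_R4 had 7.39, 8.46, 27.9 and 7.67 FPKM. Against the 3 retained NTC libraries, which lay close together, every retained treated library was higher. The share of all genes for which this held was not counted. NTC_R3 lay above all libraries of the study other than Aki_R3, so that over all 16 libraries no treatment was separate from NTC.

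The retained Aki libraries averaged 20.1 ± 9.50 FPKM of VIT_11s0016g00710 and the NTC libraries 7.84 ± 0.552 FPKM (SD, n = 3 each), with a log2 fold change of 1.24 (0.57 to 1.91, adjusted p = 0.0305). Over all 16 libraries the log2 fold change was 0.47 (-0.42 to 1.37, adjusted p = 0.792). The call was also lost without Aki_R3 (adjusted p = 0.101), Aki_R4 (0.0661), NTC_R1 (0.105), NTC_R2 (0.0507) or NTC_R4 (0.0986), and with Aki_R1 (0.184) or NTC_R3 (0.435) added. Fits without trend and robust moderation (0.0553), or with the replicate number as a block over the retained libraries (0.144), ended it as well. In BL (13.7 ± 0.0708 FPKM) and BF (15.3 ± 5.11 FPKM; SD, n = 3 each) the log2 fold changes were 0.80 (0.14 to 1.47, adjusted p = 0.0879) and 0.90 (0.23 to 1.57, adjusted p = 0.0691), short of the threshold. Both passed without Aki_R2 (adjusted p = 0.0349 in BL and 0.0248 in BF) or without Aki_R3 (0.0357 in BL and 0.0254 in BF), libraries that enter these contrasts through the shared estimate of the spread alone, and BF also passed without BF_R4 (0.0197). In separate fits of each treatment with NTC, at the same fold changes, BL (adjusted p = 0.00206) and BF (0.0476) passed and Aki (0.0561) did not.

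**Figure D2:**
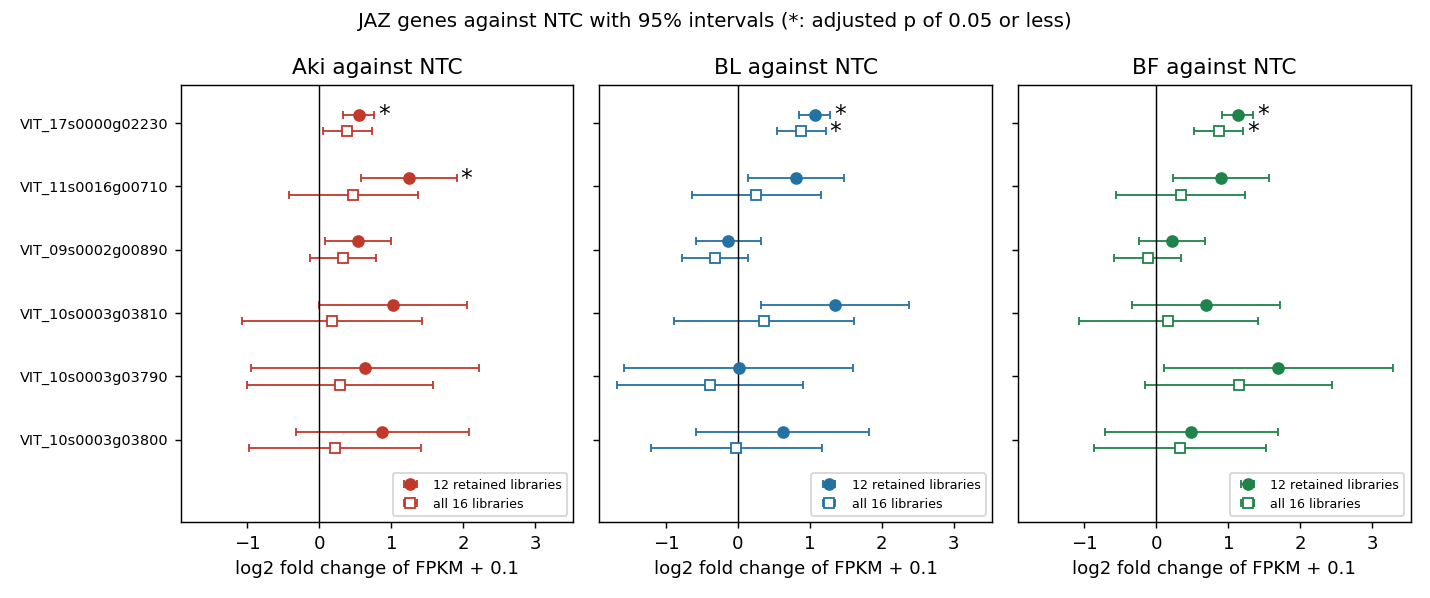
Log2 fold change against NTC (horizontal axis, on the FPKM + 0.1 scale) of each JAZ gene for Aki, BL and BF, with 95% intervals; filled circles use the 12 retained libraries, open squares all 16, and a star marks an adjusted p of 0.05 or less. Stars on both symbols stand only on VIT_17s0000g02230 in BL and BF.

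VIT_09s0002g00890 was the only JAZ gene called higher in Aki than in BL, and it did not pass against NTC. Aki_R1 to Aki_R4 had 16.0, 12.4, 21.2 and 18.8 FPKM, and BL_R1 to BL_R4 had 10.7, 11.8, 9.01 and 11.3 FPKM. BF_R1 to BF_R4 had 8.91, 16.8, 12.4 and 11.98 FPKM, and NTC_R1 to NTC_R4 had 13.7, 9.65, 19.6 and 12.02 FPKM. All 4 Aki libraries lay above all 4 BL libraries, whereas Aki and NTC overlapped. The share of all genes with such a separation of Aki from BL was not counted. The log2 difference between Aki and BL was 0.67 over the retained libraries (0.22 to 1.13, adjusted p = 0.0477) and 0.65 over all 16 (0.19 to 1.11, adjusted p = 0.0573). Its adjusted p stayed between 0.0150 and 0.154 over 34 alternative settings and passed in 17. Leaving out any of Aki_R3, Aki_R4, BL_R2, BL_R3, BL_R4, BF_R3 or NTC_R4 put it between 0.0536 and 0.154, and adding BF_R1 (0.0928) or NTC_R3 (0.0949) also ended the call.

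Against NTC, the log2 fold changes of VIT_09s0002g00890 were 0.54 in Aki (0.09 to 0.99, adjusted p = 0.146), -0.13 in BL (-0.59 to 0.32, adjusted p = 0.702) and 0.22 in BF (-0.24 to 0.67, adjusted p = 0.568). The Aki contrast passed without Aki_R2 (adjusted p = 0.0435), the lowest Aki library. VIT_09s0002g00890 thus had BL lowest of the 4 group means, at 10.7 ± 1.50 FPKM (SD, n = 3), while VIT_17s0000g02230 had BL among the highest. The test of the difference between these 2 patterns was not run.

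VIT_10s0003g03810 varied most widely among the JAZ genes above 1 FPKM, 6.80-fold between its lowest and highest library. Aki_R1 to Aki_R4 had 3.99, 3.47, 12.7 and 10.9 FPKM. BL_R1 to BL_R4 had 3.39, 8.59, 7.82 and 14.0 FPKM, and BF_R1 to BF_R4 had 7.87, 5.85, 10.4 and 3.89 FPKM. NTC_R1 to NTC_R4 had 3.09, 5.14, 21.0 and 3.43 FPKM. The retained BL libraries lay above the retained NTC libraries, but the highest value of all was that of NTC_R3, and the Aki libraries fell into a low pair and a high pair.

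Over the retained libraries the log2 fold changes of VIT_10s0003g03810 were 1.03 in Aki (-0.0015 to 2.06, adjusted p = 0.228), 1.35 in BL (0.32 to 2.38, adjusted p = 0.0661) and 0.69 in BF (-0.34 to 1.72, adjusted p = 0.383). None passed the threshold. Without Aki_R2 the Aki (adjusted p = 0.0353) and BL (adjusted p = 0.0180) contrasts did, and in a separate fit of BL and NTC the BL contrast did at the same fold change (adjusted p = 0.00768). With all 16 libraries the values came to 0.18 in Aki (adjusted p = 0.970), 0.36 in BL (0.748) and 0.17 in BF (0.883), and the means of Aki, 7.75 ± 4.71 FPKM, and BF, 7.00 ± 2.79 FPKM, lay below that of NTC, 8.17 ± 8.62 FPKM (SD, n = 4 each).

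VIT_10s0003g03790, the JAZ gene with a description, had its highest group mean in BF, at few fragments, while its highest single library was Aki_R3. Aki_R1 to Aki_R4 had 0.577, 0.145, 2.56 and 0.808 FPKM, and BL_R1 to BL_R4 had 0.284, 1.18, 0.257 and 0.258 FPKM. BF_R1 to BF_R4 had 0.706, 2.07, 1.43 and 1.51 FPKM, from 6, 19, 10 and 13 fragments, and NTC_R1 to NTC_R4 had 0.399, 0.615, 1.05 and 0.344 FPKM, from 4, 5, 9 and 3 fragments. The retained BF libraries lay above the retained NTC libraries, while with BF_R1 and NTC_R3 the groups overlapped. A count of 3 fragments, taken as the smallest that can be told from 0, corresponds to between 0.284 and 0.435 FPKM of this gene, and 5 of the 16 libraries held 3 fragments or fewer.

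The log2 fold change of VIT_10s0003g03790 in BF was 1.69 over the retained libraries (0.10 to 3.28, adjusted p = 0.147) and 1.14 over all 16 (-0.15 to 2.43, adjusted p = 0.234). It was the largest fold change among the 6 genes and did not pass the threshold; in a separate fit of BF and NTC it did (adjusted p = 0.0178). In Aki the value was 0.63 (-0.96 to 2.22, adjusted p = 0.694) and in BL 0.01 (adjusted p = 0.992), which is 1.01-fold with an interval of 0.336-fold to 3.04-fold. Aki_R3, with 26 fragments, and BL_R2, with 9, were each the highest of their group, and without Aki_R3 the Aki value was -0.20 (adjusted p = 0.921).

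VIT_10s0003g03800 passed no test. It ranged from 0.210 to 1.43 FPKM in Aki, from 0.172 to 1.06 FPKM in BL, from 0.211 to 1.04 FPKM in BF and from 0.313 to 0.955 FPKM in NTC, so that all 4 groups overlapped. Its log2 fold changes over the retained libraries were 0.88 in Aki (-0.33 to 2.08, adjusted p = 0.404), 0.62 in BL (-0.58 to 1.82, adjusted p = 0.473) and 0.48 in BF (-0.72 to 1.68, adjusted p = 0.637). In 6 of the 16 libraries it held 3 fragments or fewer.

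All 6 JAZ genes passed the filter on low values, and the counts over them were few. Over the retained libraries, 2 of the 6 rose after Aki, where 4.29% of the 20078 genes tested rose, 1 rose after BL, where 11.5% did, and 1 after BF, where 9.89% did. None fell. For BL and BF, 1 of 6 is thus near the share of all genes. Over all 16 libraries 0 of the 6 rose after Aki (1 had an unadjusted p under 0.05, as 10.4% of all genes had), 1 after BL and 1 after BF, beside 0.820%, 9.33% and 9.25% of 20246 genes. In the direct comparisons over the retained libraries, 1 JAZ gene was higher in Aki than in BL, beside 6.66% of all genes, 1 was lower in Aki than in BL, beside 8.79%, and 1 was lower in Aki than in BF, beside 9.74%. Between BL and BF, limma called 0 JAZ genes and 0% of all genes, with 1625 genes (8.09%) and 1 JAZ gene at an unadjusted p under 0.05.

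With a further threshold of 1.4 on the size of the log2 fold change, 0 JAZ genes passed over the retained libraries in limma under any treatment, and likewise with voom on rebuilt fragments. Both limits were passed by VIT_10s0003g03790 in BF in the separate fit (log2 fold change 1.69, adjusted p = 0.0178), and in Aki without Aki_R2 by VIT_11s0016g00710 (1.59, adjusted p = 0.00924) and VIT_10s0003g03810 (1.604, adjusted p = 0.0353). In those fits 497 of 19355 genes passed both limits in BF and 312 of 19968 in Aki. In the main fit over the retained libraries, 1.68% of all genes passed both after Aki, 3.83% after BL and 2.73% after BF. At an unadjusted p under 0.05, 3 of the 6 JAZ genes stood in each treatment, beside 21.9% of all genes after Aki, 32.6% after BL and 28.4% after BF. The fitted fold changes over the retained libraries lay above 0 for 6 of the 6 genes after Aki, for 5 after BL and for 6 after BF. Their medians were 0.75 in Aki, 0.71 in BL and 0.80 in BF, beside medians over all genes of -0.01, 0.05 and 0.04. Over all 16 libraries the medians over the 6 genes were 0.31, 0.12 and 0.33, and 3 of the 6 genes lay above 0 in BL. The 3 treatments share their NTC libraries. By separation of the libraries over all 16, 0 of the 6 genes had every Aki library above every NTC library, beside 3.43% of all genes. For BL 1 gene had every library above NTC, beside 12.3%, and for BF 1 gene did, beside 9.73%. That gene was VIT_17s0000g02230 in both. For the separations seen over the retained libraries alone, the share of all genes was not counted, so they are description only.

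**Figure D3:**
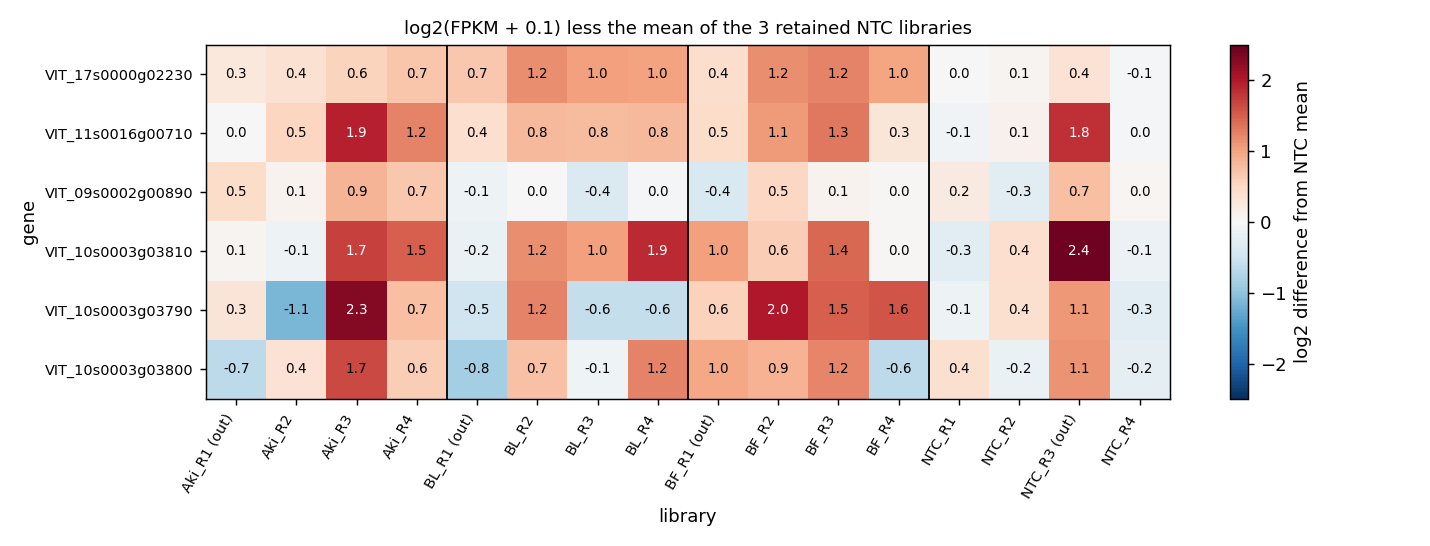
Log2(FPKM + 0.1) of each JAZ gene (rows) in each library (columns, grouped as Aki, BL, BF and NTC; "out" marks the left-out libraries) less the mean of the 3 retained NTC libraries; red is higher and blue lower, with the value printed in each cell. Aki_R3 and NTC_R3 are red in every row, and VIT_17s0000g02230 is red across BL and BF.

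Among the libraries, Aki_R3 and NTC_R3 stood out for most JAZ genes. In NTC_R3 all 6 genes were above the other 3 NTC libraries, as 29.9% of all genes tested over the 16 libraries were. The ratio of NTC_R3 to the mean of the retained NTC libraries was 5.41 for VIT_10s0003g03810, 3.56 for VIT_11s0016g00710, 2.40 for VIT_10s0003g03800, 2.32 for VIT_10s0003g03790, 1.66 for VIT_09s0002g00890 and 1.29 for VIT_17s0000g02230. Aki_R3, a retained library, was the highest of all 16 for VIT_11s0016g00710, VIT_09s0002g00890, VIT_10s0003g03790 and VIT_10s0003g03800. VIT_17s0000g02230, by contrast, ranked 9th of 16 in Aki_R3 and 12th in NTC_R3. The share of all genes that were highest in Aki_R3 was not counted. What set Aki_R3 and NTC_R3 apart was not tested.

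The summed level shows the same split between the leading gene and the rest. The 5 JAZ genes other than VIT_17s0000g02230 together had 68.1 FPKM in Aki_R3 and 70.6 FPKM in NTC_R3, and between 23.8 and 49.8 FPKM in the other 14 libraries. The share of VIT_17s0000g02230 in the summed FPKM was 62.4% in Aki_R3 and 58.3% in NTC_R3. Over the retained libraries that share averaged 81.8% ± 2.19 in BL and 81.8% ± 2.59 in BF, 70.7% ± 7.93 in Aki and 75.9% ± 0.892 in NTC (SD, n = 3 each). The summed FPKM averaged 161 ± 28.8 in Aki, 197 ± 11.1 in BL and 207 ± 24.5 in BF, against 101 ± 3.61 in NTC (SD, n = 3 each). No test was made of the sum or the share.

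**Figure D4:**
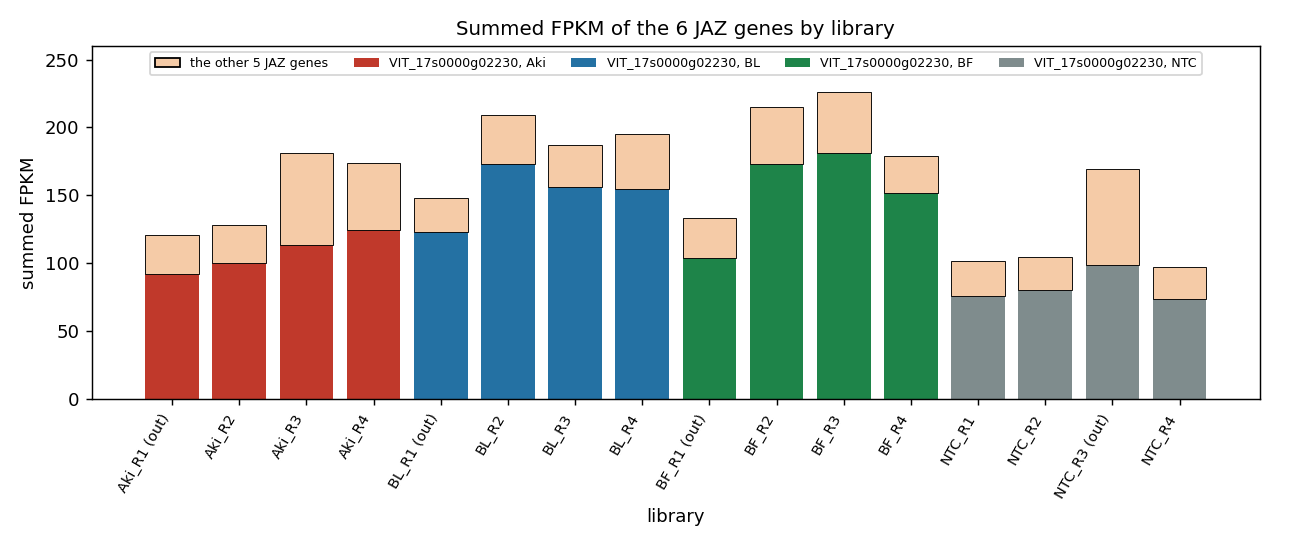
Summed FPKM of the 6 JAZ genes (vertical axis, linear from 0) in each library, with VIT_17s0000g02230 in the colour of its group (Aki, BL, BF, NTC) and the other 5 genes stacked on top in beige. The beige part is largest in Aki_R3 (68.1 FPKM) and NTC_R3 (70.6 FPKM). Among the retained libraries the coloured part is largest in BF and BL, whereas the left-out BF_R1 and BL_R1 lie below Aki_R4.

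The JAZ genes varied together to different degrees. Over the 16 libraries, which share the treatments and these 2 high libraries, Pearson's r of log2(FPKM + 0.1) was above 0 for 14 of the 15 pairs, between -0.06 and 0.84 with a median of 0.43. The most alike were VIT_10s0003g03810 and VIT_11s0016g00710 (r = 0.84, and 0.77 without Aki_R3 and NTC_R3, n = 14), followed by the neighbours in identifier VIT_10s0003g03800 and VIT_10s0003g03810 (r = 0.76, and 0.72 without those 2 libraries). The least alike were VIT_09s0002g00890 and VIT_17s0000g02230 (r = -0.06). After the mean of each group was taken away, r was above 0 for all 15 pairs, between 0.40 and 0.87, and came to 0.65 for VIT_09s0002g00890 and VIT_17s0000g02230. Over all 16 libraries these 2 genes thus varied together within groups while their group means were ordered differently. For both genes the left-out BF_R1 was the lowest BF library and the left-out NTC_R3 the highest NTC library, and this r was not computed without them. No neighbouring group means of VIT_09s0002g00890 were separated past the threshold. The likeness of the 2 lowest genes to any other is limited by their few fragments. The share of all gene pairs with r above 0 was not counted, so the counts of pairs are description only. These values were not rescaled, and a typical gene reads low in BF_R1 (median-of-ratios factor 0.871).

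Set among all genes tested over the 16 libraries, the JAZ genes were near neighbours of each other only in part. Of the 20245 other genes, VIT_11s0016g00710 was the 7th most like VIT_10s0003g03810, and VIT_10s0003g03810 the 7th most like VIT_10s0003g03800. For VIT_17s0000g02230, the JAZ gene most like it, VIT_11s0016g00710 (r = 0.46), came only at place 4278. The genes most like the mean standardized level of the 6 genes were VIT_12s0134g00020 (r = 0.96) and VIT_10s0116g00710 (r = 0.93), which the sources used here do not describe, and then VIT_11s0016g00710 itself (r = 0.93), which is part of that mean. VIT_12s0134g00020 had 24.9 FPKM in Aki_R3 and 11.9 FPKM in NTC_R3, against 2.15 to 2.26 FPKM in the retained NTC libraries. The rankings were not repeated without Aki_R3 and NTC_R3. For VIT_10s0003g03790 the nearest genes reached r between 0.77 and 0.78, and the nearest JAZ gene, VIT_11s0016g00710 (r = 0.56), came at place 159.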

How the data were processed

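The authors trimmed the reads (BBDuk), aligned with STAR 2.6 against the PN40024 assembly, and used featureCounts 1.6.1 to count uniquely mapped fragments per gene, per the labels and methods. What the authors deposited are FPKM from edgeR, for 16 libraries and 30661 genes. Whole fragments were rebuilt for 25309 of the 25310 genes above 0 from the FPKM and the assigned totals that the study lists, within 0.1 fragment, and served for the depth, the limit of 3 fragments and an alternative. The limit of 3 fragments covers counting error only, whereas the intervals of fold changes are those of limma and rest on the spread between libraries. The study's choice of the less variable replicates can make that spread too small over the retained libraries. No column was left without a sample (0).

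Groups and replicate numbers came from the labels. Genes that reached 0.5 FPKM in 3 or more libraries entered the test, and their log2(FPKM + 0.1) was fitted with limma 3.58.1 in R 4.3.3, in 1 model of the 4 groups with trend and robust moderation, over 12 retained libraries (20078 genes) and over all 16 (20246 genes). Python 3.11.15, pandas 2.3.3, NumPy 2.4.6 and matplotlib 3.10.9 served for tables and figures. The procedure was checked on simulated data with known changes. These had a common spread and no outlying libraries, and the changed genes lay above the levels of VIT_10s0003g03790 and VIT_10s0003g03800. The check therefore does not bear on genes with few fragments or on calls that turn on single libraries. The members, the lists and the tests were chosen with earlier results of these data known.

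Named genes were all 6 members, and the genes most like their mean or like VIT_10s0003g03790, of which at most 2 without a description are named. A list of other jasmonate pathway genes and lists of tissue markers had been planned by gene description; the identifiers could not be matched to descriptions, and these lists were not used here. The 34 alternatives were other libraries, pseudocounts (1 and 0.01 FPKM), filters (none and 1 FPKM), rescalings, moderation, separate fits, a replicate block, rebuilt fragments with voom, and each retained library left out; 9 of them were chosen after seeing the data.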

Additional observations from a re-analysis of the deposited data

Results flagged for a closer look

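Of 24 groups of 4 libraries (6 JAZ genes in each of Aki, BL, BF and NTC), 4 held a library whose gap to the nearest other was nearly the whole range of the group by Dixon's ratio; chance alone flags about 1 in 20 groups. VIT_10s0003g03790 had 1.18 FPKM in BL_R2, from 9 fragments, against 0.257 to 0.284 FPKM in the other BL libraries. VIT_10s0003g03810 had 21.0 FPKM in NTC_R3, against 3.09 to 5.14 FPKM in the other NTC libraries. VIT_11s0016g00710 had 27.9 FPKM in NTC_R3, against 7.39 to 8.46 FPKM in the others, and 10.5 FPKM in BL_R1, below the 13.7 to 13.8 FPKM of the other BL libraries. The study left out NTC_R3 and BL_R1, so that 3 of these 4 values are in libraries outside the 12 retained ones.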

How the results depend on the processing

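The rises of VIT_17s0000g02230 in BL and BF kept their direction and their side of the threshold under all 34 alternatives. The number of JAZ genes changed in Aki against NTC was 2 and came to 0 over all 16 libraries, also with median-of-ratios rescaling, rebuilt fragments with voom or the replicate number as a block, and with NTC_R3 added. It was 1 in separate fits, without trend and robust moderation, with Aki_R1 or BF_R1 added, and with the replicate block over the retained libraries. With single retained libraries left out it ranged from 1 to 4. It was 0 when Aki_R1, BL_R1, BF_R1 or NTC_R3 was taken singly from all 16. In BL (1 changed) and BF (1 changed) against NTC it was 3 in separate fits, and with single libraries left out its range was 1 to 3 for BL and 1 to 2 for BF. In Aki against BL (2 changed) it was 1 over all 16 libraries, in separate fits, without a filter, without moderation, with NTC_R3 added and in both fits with the replicate block, and 0 with BF_R1 added. There it ranged from 1 to 2 with single retained libraries left out. It ranged from 0 to 2 when Aki_R1, BL_R1, BF_R1 or NTC_R3 was taken singly from all 16. In Aki against BF (1 changed) it was 0 over all 16 libraries and with BF_R1 added. There it was 1 with any single retained library left out, and ranged from 0 to 1 with single libraries taken from all 16. It stayed at 0 in BL against BF. The cause of these moves was not tested.

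Signs turned only for values that passed under no setting. For VIT_10s0003g03790 in BL the log2 fold change was -0.39 over all 16 libraries and in their replicate block, -0.41 with median-of-ratios and -0.45 with voom over all 16, and over the retained libraries -0.031 with a pseudocount of 0.01, -0.029 with median-of-ratios, -0.10 with quantile normalization, -0.19 with the replicate block, -0.0075 with voom, -0.11 with BL_R1 added and -0.26 with NTC_R3 added. With single libraries left out of the retained ones or of all 16, it ranged from -0.60 to 0.32, and in Aki from -0.20 to 1.52. Its BL value could not be had in the separate fit, where the gene missed the filter. For VIT_10s0003g03800 in BL, the value over all 16 libraries was -0.021, also with the block, -0.13 with voom and -0.050 with median-of-ratios. For VIT_09s0002g00890 in BF it was -0.12 over all 16, with the block and with median-of-ratios, and -0.10 with voom. For VIT_17s0000g02230 in BL against BF it was 0.013 over all 16 and with the block, 0.0077 with quantile normalization, and 0.11 with BF_R1 added. With single libraries left out of the retained ones or of all 16, these 3 values ranged from -0.021 to 0.99, from -0.12 to 0.33 and from -0.16 to 0.11.

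The replicate numbers stand for different plants in each group, and the main fit did not pair the libraries by number. Deviations of same-numbered libraries correlated between -0.06 and 0.15 in 15 pairs, and of others between -0.32 and 0.36 in 39 pairs. Such ranges cannot show whether libraries of 1 number share a source of spread. Of 24 group levels, 23 moved by less than 1 SD on median-of-ratios rescaling. Few fragments limit VIT_10s0003g03790 and VIT_10s0003g03800, and 3 libraries a group limit the rest.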
